A study of Saccharomyces cerevisiae with 15 samples.

Results

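The genes described here are the 30 genes named for ergosterol synthesis and its regulation in the yeast Saccharomyces cerevisiae. They are 9 genes of the early, mevalonate branch, 14 genes of the late branch from squalene to ergosterol, 2 genes for electron donors, 2 transcription factors, 2 sterol acyltransferases and 1 sterol transport gene. A probe set, the group of oligonucleotides that reads 1 transcript on the array, was taken for a gene only where the platform annotation names that gene and no other, and where a gene had several the one with the highest mean signal was used. All 30 genes were found, by 33 of the 6504 probe sets that name 1 gene (5656 genes) among 9275 in all. Of the 30, 29 passed the filter on dim signals and were tested, and ARE2 did not. ERG12 was the single gene with several probe sets, 4 in number.

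Polyadenylated RNA of strain CEN.PK113-7D, a prototrophic haploid of mating type a, was measured on 15 single-colour Affymetrix YG_S98 arrays, 3 for each of 5 amino acids supplied as the only nitrogen source. These were asparagine at 5.0 g/l, proline at 8.8 g/l, leucine at 10.0 g/l, phenylalanine at 5.0 g/l and methionine at 11.3 g/l. All cultures were aerobic, glucose-limited chemostats, vessels in which the feed rate sets the growth rate, with 7.5 g/l glucose and 6.6 g/l potassium sulfate in the feed, a dilution rate of 0.10 per hour, 30 °C, pH 5.0 and dissolved oxygen above 50%, sampled after 10 to 14 volume changes. The labels speak of triplicates without saying that cultures were separate. The p-values therefore describe the spread among the arrays, part of which may be technical.

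Yeast builds ergosterol, the main sterol of its membranes, from acetyl-CoA, first through mevalonate to farnesyl diphosphate and then through squalene and lanosterol. HMG-CoA reductase is the best known control point of the first branch, and several steps of the second use molecular oxygen and heme or iron enzymes. The paired transcription factors Upc2 and Ecm22 activate many of these genes when sterols run short, Are1 and Are2 store surplus sterol as esters, and Hes1 belongs to the oxysterol-binding proteins, which carry sterols and other lipids between membranes.

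Most of these transcripts were high with asparagine and proline and lower with leucine, phenylalanine and methionine. Signals came from RNA of whole cultures scaled per array, so fewer cells with a transcript and less of it per cell cannot be told apart. Of the 29 tested, 28 passed limma's F test over the 5 sources at an adjusted p under 0.05, against 52.2% of all 7459 probe sets tested. The exception was ERG8, at an adjusted p of 0.063. For 16 of the 29 genes the signals of all 6 asparagine and proline arrays lay above those of all 9 other arrays, against 4.52% of all probe sets tested. These were 4 early genes (ERG10, HMG1, MVD1 and IDI1), 9 late genes (ERG1, ERG11, ERG24, ERG25, ERG26, ERG28, ERG6, ERG3 and ERG5), the electron donor CYB5, the regulator UPC2 and HES1. HES1 passed the filter on dim signals only through the 6 asparagine and proline arrays. Its place in this count and in the later counts of calls is therefore no support for the pattern. The highest mean log2 signal was with proline for 20 genes and with asparagine for 5, and the lowest was with phenylalanine for 15 and with methionine for 9. The phenylalanine arrays also had the lowest median signals, at 43.5 ± 4.72 (mean ± SD). With phenylalanine against leucine the median log2 difference of the 29 was -0.13, against -0.14 over all probe sets tested. The part of array scaling in the rank of phenylalanine was not tested. Within a source the arrays agreed closely, with a median coefficient of variation of 9.02% over the 145 combinations of gene and source, and 9 combinations above 30%. By source that median ran from 5.89% with proline to 15.9% with phenylalanine.

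**Figure D1:**
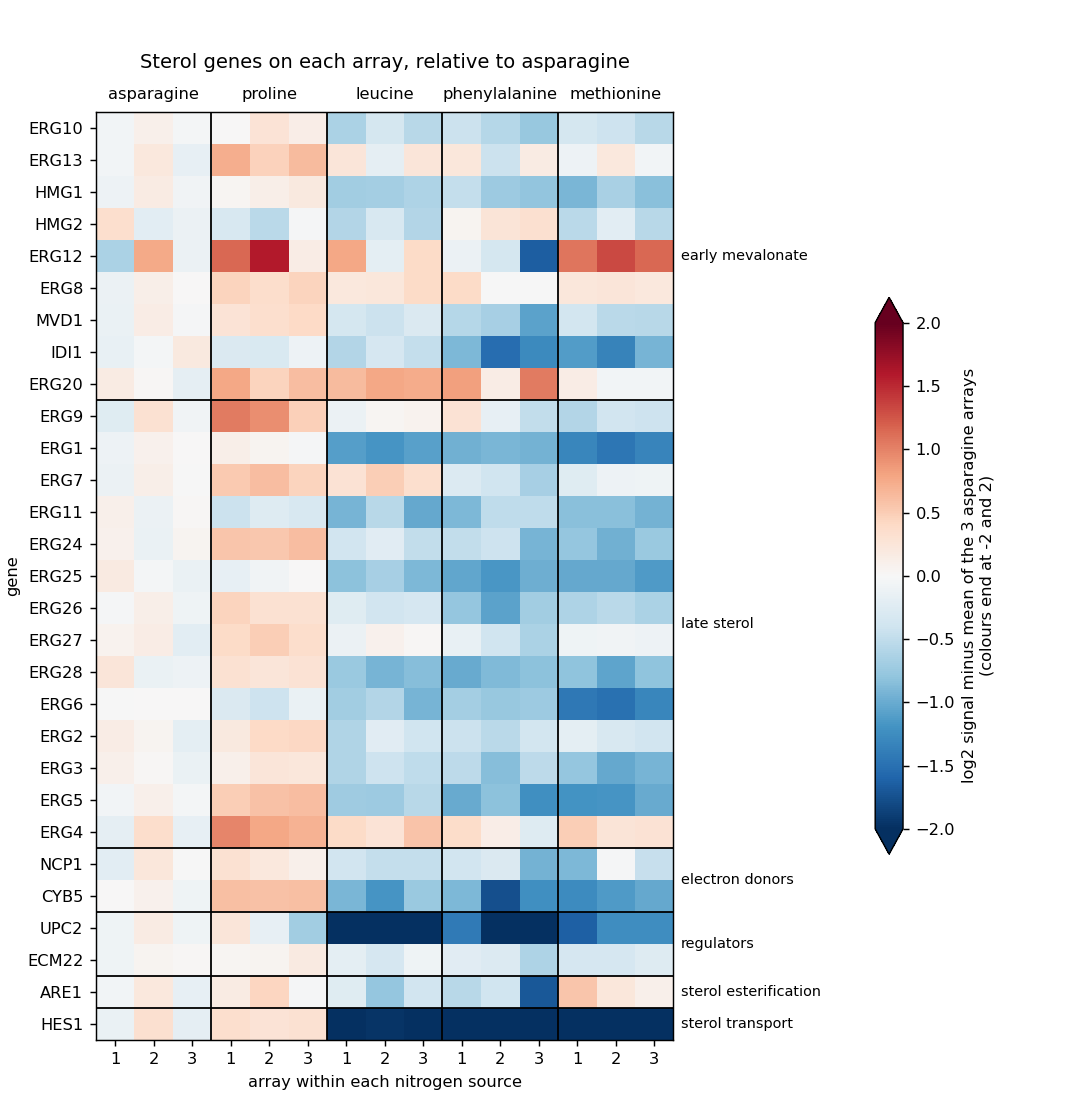
Log2 signal of each of the 29 tested genes (rows, grouped by role) on each of the 15 arrays (columns, grouped by nitrogen source), relative to that gene's mean over the 3 asparagine arrays. Blue fills most rows with leucine, phenylalanine and methionine, ERG20, ERG4, ERG13 and ERG8 are among the rows that do not follow this, and the colours end at differences of -2 and 2.

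In the early branch, 4 genes showed that pattern and the others did not. HMG1 encodes the HMG-CoA reductase isozyme of aerobic cells, and its signals were 1254, 1516 and 1284 with asparagine, 1377, 1454 and 1535 with proline, 828, 838 and 875 with leucine, 965, 816 and 782 with phenylalanine and 718, 855 and 757 with methionine. No array of the last 3 sources reached the lowest asparagine or proline array. HMG1 fell 1.59-fold with leucine, 1.58-fold with phenylalanine and 1.74-fold with methionine against asparagine (each at an adjusted p of 6.7e-04 or less), and 1.72-, 1.71- and 1.88-fold against proline. ERG10, which encodes acetoacetyl-CoA thiolase, the first enzyme of the pathway, read 1152, 1292 and 1166 with asparagine, 1205, 1449.5 and 1315 with proline, 774, 939 and 815 with leucine, 894, 809 and 708 with phenylalanine and 942, 906 and 814 with methionine. The leucine, phenylalanine and methionine arrays all stayed under the lowest of the other 6. ERG10 fell 1.43-, 1.50- and 1.36-fold against asparagine in the order leucine, phenylalanine and methionine, and 1.57-, 1.65- and 1.49-fold against proline.

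MVD1 encodes mevalonate diphosphate decarboxylase, and read 474, 571 and 511 with asparagine, 628, 655 and 682 with proline, 405, 386 and 425 with leucine, 349.9, 325 and 247 with phenylalanine and 400.1, 357 and 351 with methionine. The proline arrays were the highest and did not overlap the asparagine arrays, though that difference did not pass (log2 0.34 ± 0.13 SE, adjusted p 0.098). Against asparagine MVD1 fell 1.70-fold with phenylalanine and 1.40-fold with methionine, with leucine at a log2 difference of -0.35 ± 0.13 (adjusted p 0.066), and against proline it fell 1.62-, 2.15- and 1.78-fold with leucine, phenylalanine and methionine. IDI1, the isomerase of isopentenyl diphosphate, read 332, 358 and 422 with asparagine, 302, 297 and 342 with proline, 246, 292 and 265 with leucine, 199, 128 and 153 with phenylalanine and 169, 146 and 194 with methionine. Leucine stood between the 2 high sources and the 2 low ones. IDI1 fell 2.34-fold with phenylalanine and 2.19-fold with methionine against asparagine, 1.99- and 1.86-fold against proline, and 1.70- and 1.58-fold against leucine. Its difference between leucine and asparagine was -0.47 ± 0.16 on the log2 scale (adjusted p 0.052), and the one between methionine and leucine did not pass without methionine array 2 (adjusted p 0.062).

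The other early genes moved differently. HMG2, the second HMG-CoA reductase, which in yeast is the isozyme degraded on demand and favoured at low oxygen, read 303, 207 and 220.0 with asparagine, 193, 164 and 236 with proline, 159, 192 and 159 with leucine, 249.6, 286 and 299 with phenylalanine and 166, 208 and 163 with methionine. The phenylalanine arrays were high and the asparagine arrays overlapped them. HMG2 rose 1.64-fold with phenylalanine against leucine and fell 1.56-fold with methionine against phenylalanine and 1.42-fold with leucine against asparagine, the last at an adjusted p of 0.0499. ERG20 encodes farnesyl diphosphate synthase, at the point where sterol, ubiquinone, dolichol and protein prenylation routes part, and read 199.7, 181 and 158 with asparagine, 305, 245 and 274 with proline, 277, 307 and 299 with leucine, 316, 199 and 368 with phenylalanine and 198, 172 and 172 with methionine. It was low with asparagine and methionine, and phenylalanine array 2 lay within their range. ERG20 rose 1.53-fold with proline, 1.64-fold with leucine and 1.59-fold with phenylalanine against asparagine, and fell 1.52-, 1.63- and 1.58-fold with methionine against those 3 sources. Without asparagine array 3 the adjusted p of its rise with leucine was 0.053.

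ERG13, for HMG-CoA synthase, was at 569 ± 50.9 with proline (mean ± SD, n = 3) and between 375 and 403 on average with the other 4 sources. Its F test did not pass when any 1 of 6 arrays was left out, with the highest adjusted p at 0.14 without proline array 1. It rose 1.52-fold with proline against asparagine and fell 1.54-fold with phenylalanine and 1.50-fold with methionine against proline. ERG8, for phosphomevalonate kinase, rose 1.33-fold with proline against asparagine (from 371 ± 31.7 to 492 ± 18.8) and passed in no other pair of sources. ERG12, for mevalonate kinase, had by its brightest probe set means of 106 ± 52.5 on asparagine, 206 ± 92.3 on proline, 127 ± 41.0 on leucine, 66.0 ± 30.8 on phenylalanine and 221 ± 20.4 on methionine. That probe set carries the suffix of shared sequence, and its asparagine arrays ran from 62.8 to 164. It rose 2.26-fold with methionine against asparagine and 3.68-fold against phenylalanine, and fell 3.17-fold with phenylalanine against proline. The 4 probe sets of ERG12 disagreed: the brighter of the 2 with a plain suffix held 73.7 ± 18.0 with asparagine and 57.1 ± 9.74 with methionine, a log2 difference of -0.35 (adjusted p 0.25). The direction for ERG12 is therefore uncertain.

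In the late branch all 14 genes differed among the sources. ERG1 encodes squalene epoxidase, the first oxygen-dependent step, and had the smallest F test p of all 29 genes (adjusted p 1.2e-08). It read 999.8, 1141 and 1085 with asparagine, 1168, 1112 and 1057 with proline, 502, 473 and 508 with leucine, 553, 567 and 560.2 with phenylalanine and 435, 394 and 428 with methionine. The 6 high arrays and the 9 low ones were separated by a gap from 567 to 999.8. ERG1 fell 2.17-fold with leucine, 1.92-fold with phenylalanine and 2.57-fold with methionine against asparagine, 2.25-, 1.98- and 2.66-fold against proline, and 1.34-fold with methionine against phenylalanine.

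ERG5, the desaturase of the sterol side chain and a heme protein, read 449, 500.3 and 453 with asparagine, 656, 701 and 719.6 with proline, 286, 283 and 319.5 with leucine, 232, 263 and 200.2 with phenylalanine and 205, 207 and 233 with methionine. Proline, asparagine and the other 3 sources formed 3 levels with no overlap. ERG5 rose 1.48-fold with proline against asparagine and fell 1.58-, 2.03- and 2.18-fold against asparagine and 2.34-, 3.00- and 3.22-fold against proline with leucine, phenylalanine and methionine in that order. It also fell 1.38-fold with methionine against leucine. ERG6, the methyltransferase that gives fungal sterols their extra side-chain carbon, read 2251, 2256 and 2255 with asparagine, 1839, 1691 and 2048 with proline, 1390.3, 1497 and 1177 with leucine, 1412, 1339 and 1359 with phenylalanine and 840.3, 805 and 912 with methionine. The methionine arrays were apart from all others. ERG6, whose enzyme takes the methyl group from S-adenosylmethionine, fell 2.65-fold with methionine against asparagine, 2.18-fold against proline, 1.58-fold against leucine and 1.61-fold against phenylalanine. With leucine and phenylalanine it fell 1.67- and 1.65-fold against asparagine and 1.38- and 1.35-fold against proline.

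**Figure D2:**
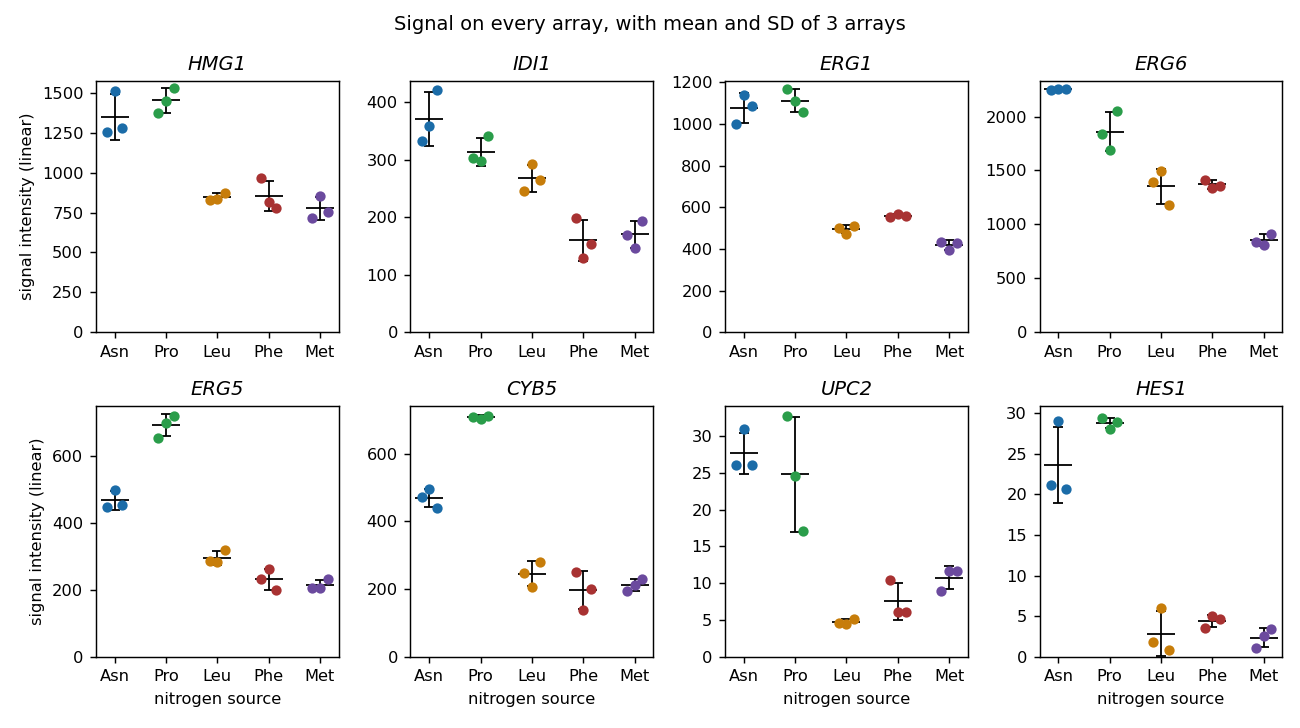
Linear signal intensity of 8 genes on every array by nitrogen source (Asn, asparagine; Pro, proline; Leu, leucine; Phe, phenylalanine; Met, methionine), with the mean (dash) and SD (bar) of 3 arrays. In each panel the 6 asparagine and proline points lie above the 9 others, by a wide gap for ERG1 and a narrow one for IDI1 (297 against 292). All 8 genes shown are among those without overlap between these arrays, so the panels do not show how common this was. For HES1 the dim filter favoured this split.

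ERG25, ERG26 and ERG27 encode 3 enzymes that act in turn to remove a pair of methyl groups from the sterol nucleus after the step of Erg11, and Erg28 holds them together in the membrane. ERG25, the oxidase, read 3071, 2645 and 2474 with asparagine, 2434, 2598 and 2719 with proline, 1533, 1711 and 1457 with leucine, 1322, 1210.1 and 1382 with phenylalanine and 1345, 1339 and 1236 with methionine. ERG28 read 602, 469 and 474 with asparagine, 634, 604 and 624 with proline, 305, 269 and 284 with leucine, 253, 276 and 289 with phenylalanine and 294, 246 and 293 with methionine. Both were high with asparagine and proline alike and low in the other 9 arrays. ERG25 fell 1.74-fold with leucine, 2.09-fold with phenylalanine and 2.08-fold with methionine against asparagine, and 1.65-, 1.98- and 1.98-fold against proline. ERG28 fell 1.79-, 1.88- and 1.85-fold against asparagine and 2.17-, 2.28- and 2.24-fold against proline in the same order.

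ERG26, the dehydrogenase of the complex, read 450.4, 496 and 434 with asparagine, 626, 570.0 and 567 with proline, 389, 351 and 365 with leucine, 269, 218 and 284 with phenylalanine and 299, 315 and 297 with methionine. Leucine took a middle place for this gene. ERG26 fell 1.80-fold with phenylalanine and 1.51-fold with methionine against asparagine, 1.59-, 2.30- and 1.93-fold with leucine, phenylalanine and methionine against proline, and 1.44-fold with phenylalanine against leucine. ERG27, the keto reductase, was highest with proline (914 ± 47.6, against 693 ± 88.8 with asparagine, 1.33-fold) and lowest with phenylalanine (529 ± 87.7). It fell 1.31-fold with phenylalanine against asparagine, with arrays that overlapped, and 1.33-, 1.74- and 1.41-fold with leucine, phenylalanine and methionine against proline.

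The steps around lanosterol were not uniform. ERG9 encodes squalene synthase, which commits farnesyl diphosphate to sterols, and was high with proline alone (834 ± 163, against 475 ± 95.3 with asparagine). It rose 1.75-fold with proline against asparagine, fell 1.75-, 1.91- and 2.42-fold with leucine, phenylalanine and methionine against proline, and had log2 differences from asparagine of -0.12 ± 0.19 with phenylalanine and -0.46 ± 0.19 with methionine that did not pass. ERG7, for lanosterol synthase, rose 1.45-fold with proline and 1.30-fold with leucine and fell 1.36-fold with phenylalanine against asparagine. ERG7 also fell 1.97- and 1.60-fold with phenylalanine and methionine against proline and 1.77- and 1.44-fold against leucine. ERG11, the lanosterol demethylase that azole antifungals inhibit, was at 3047 ± 226 with asparagine and 2408 ± 142 with proline. It fell 1.79-, 1.56- and 1.83-fold with leucine, phenylalanine and methionine against asparagine, and 1.41-fold with leucine and 1.44-fold with methionine against proline. ERG24, the reductase that follows it, rose 1.49-fold with proline against asparagine (168 ± 13.5 to 250.3 ± 7.27) and fell 1.53-fold with phenylalanine and 1.77-fold with methionine. Against proline ERG24 fell 1.91-, 2.28- and 2.64-fold with the 3 other sources, and 1.38-fold with methionine against leucine.

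Of the last steps, ERG3, the desaturase of the sterol nucleus, fell 1.42-, 1.55- and 1.87-fold with leucine, phenylalanine and methionine against asparagine and 1.62-, 1.77- and 2.14-fold against proline, and 1.32-fold with methionine against leucine. Its means ran from 2744 ± 137 with proline to 1286 ± 116 with methionine. ERG2, the sterol isomerase, fell 1.33-fold with leucine and 1.36-fold with phenylalanine against asparagine, the latter at an adjusted p of 0.059 without asparagine array 1. Against proline ERG2 fell 1.68-, 1.72- and 1.55-fold. ERG4, the reductase that completes ergosterol, did not fall against asparagine with any source. It rose 1.76-fold with proline, from 386 ± 84.9 to 671 ± 65.6, and fell 1.66-fold with phenylalanine against proline.

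The 2 electron donors serve the oxygen-dependent steps. CYB5, for cytochrome b5, read 471, 496 and 441 with asparagine, 709.6, 702 and 713 with proline, 249, 207 and 282 with leucine, 251, 138 and 201 with phenylalanine and 196, 213 and 231 with methionine. The 3 proline arrays lay close together and above every other array. CYB5 rose 1.51-fold with proline against asparagine, and fell 1.92-fold with leucine, 2.45-fold with phenylalanine and 2.21-fold with methionine against asparagine and 2.91-, 3.71- and 3.33-fold against proline. NCP1, the reductase that feeds electrons to the heme enzymes, did not pass against asparagine with any source (largest difference -0.54 ± 0.20 on the log2 scale, with phenylalanine). Against proline NCP1 fell 1.57-, 1.68- and 1.59-fold. Its F test did not pass without proline array 1 (adjusted p 0.055).

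**Figure D3:**
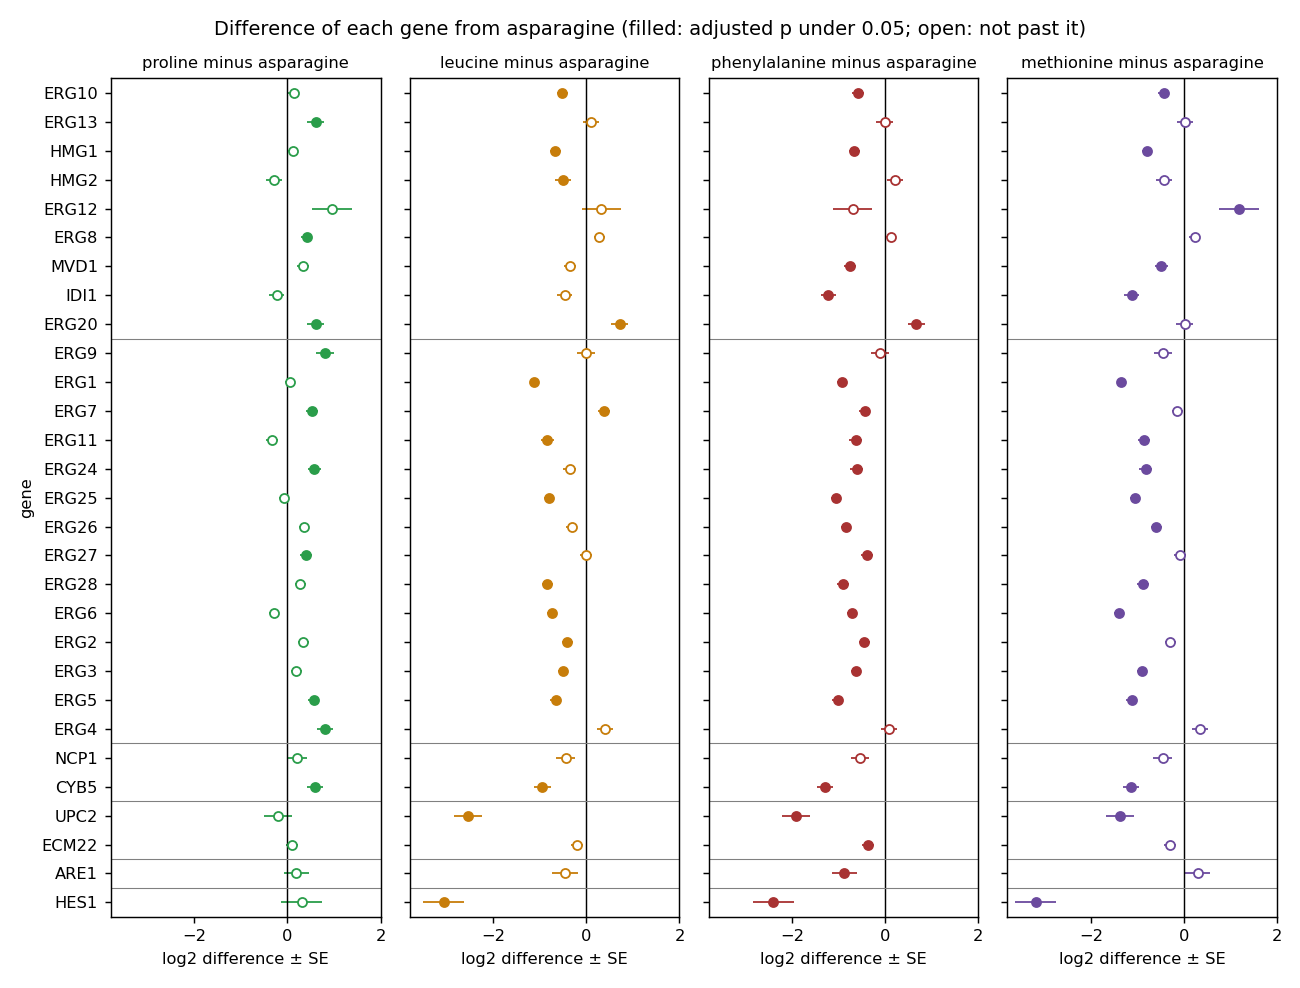
Log2 difference of each tested gene from asparagine with each of the other 4 sources, with SE from limma, where filled points have an adjusted p under 0.05 and lines part the roles. Filled points lie to the right with proline and mostly to the left with the other 3 sources, and the points of UPC2 and HES1 with leucine and phenylalanine, and of HES1 with methionine, rest on dim signals that are only bounds, so their distance has no order.

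The regulators differed from each other. UPC2 read 26.0, 30.9 and 26.1 with asparagine, 32.7, 24.5 and 17.1 with proline, 4.6, 4.5 and 5.2 with leucine, 10.4, 6.1 and 6.1 with phenylalanine and 8.9, 11.7 and 11.6 with methionine. All 3 leucine arrays, 2 phenylalanine arrays and 1 methionine array were under 9.9, the 25th percentile of all signals, below which a level is only a bound. Against asparagine UPC2 was at least 2.79-fold lower with leucine (adjusted p 1.5e-05) and at least 2.74-fold lower with phenylalanine (adjusted p 3.4e-04), and fell 2.59-fold with methionine (adjusted p 0.0024). The bounds against proline were 2.42- and 2.38-fold, and the fall with methionine against proline was 2.25-fold, at an adjusted p of 0.069 without proline array 1. UPC2 was at least 1.08-fold higher with methionine than with leucine, but with signals floored at 9.9 this call was lost (log2 0.16, adjusted p 0.62). ECM22 read 157, 174 and 169.8 with asparagine, 172, 173 and 189.7 with proline, 146, 132 and 157 with leucine, 142, 138 and 109 with phenylalanine and 132, 133 and 139.6 with methionine. Its range over the sources was narrow, and leucine array 3 overlapped asparagine array 1. ECM22 fell 1.30-fold with phenylalanine against asparagine, and 1.38- and 1.32-fold with phenylalanine and methionine against proline, and its F test had an adjusted p of 0.060 without proline array 3.

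HES1, the transport gene, read 21.2, 29.0 and 20.7 with asparagine, 29.4, 28.1 and 28.9 with proline, 1.8, 6.0 and 0.8 with leucine, 3.6, 5.0 and 4.7 with phenylalanine and 1.1, 2.6 and 3.4 with methionine. All 9 arrays of the last 3 sources were under the dim bound of 9.9 and all 6 others at least at 20.7. HES1 was therefore at least 2.36-fold lower in each of these 3 sources than in asparagine (adjusted p 9.8e-05, 0.0011 and 5.3e-05), and at least 2.91-fold lower than with proline. HES1 passed the dim filter only through those 6 arrays, so it had to differ, and its p-values use signals under the bound. With signals floored at 9.9 they were 1.5e-05, 2.4e-05 and 1.3e-05 against asparagine. That floor sets all 9 low arrays equal, so these smaller p-values are no firmer support. ARE1, a sterol acyltransferase, read 83.1, 99.4 and 76.8 with asparagine, 96.4, 116 and 84.3 with proline, 73.0, 50.5 and 65.8 with leucine, 58.2, 65.4 and 26.6 with phenylalanine and 126, 101 and 91.7 with methionine. Unlike most of these genes it was high with methionine. ARE1 fell 1.84-fold with phenylalanine against asparagine and 2.10-fold against proline, and rose 2.26-fold with methionine against phenylalanine. The fall against proline had an adjusted p of 0.052 without proline array 2, and phenylalanine array 3 was the lowest of the 15 arrays. ARE2, the other acyltransferase, read 7.1, 6.9 and 6.1 with asparagine, 11.5, 5.4 and 6.0 with proline, 5.8, 4.0 and 4.1 with leucine, 3.2, 7.4 and 1.2 with phenylalanine and 4.0, 6.0 and 6.7 with methionine. It exceeded its array's 25th percentile on 1 array, so only a bound on its level is known.

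Whether the members of a gene pair responded alike was tested on the ratio of their signals within an array, by an exact permutation test of the one-way F statistic over all 1401400 ways to put the arrays into 5 groups of 3, adjusted over the 3 pairs. On asparagine the log2 ratio of HMG1 to HMG2 was 2.49 ± 0.41 (SD, n = 3), on proline it was 2.89 ± 0.23, on leucine 2.32 ± 0.18, on phenylalanine 1.62 ± 0.29 and on methionine 2.12 ± 0.09, and it differed among the sources (exact p = 0.00126, adjusted 0.00189). The ratio was lowest with phenylalanine, where HMG1 was low and HMG2 was not. For UPC2 to ECM22 it was -2.60 ± 0.10 on asparagine, -2.89 ± 0.54 on proline, -4.93 ± 0.06 on leucine, -4.14 ± 0.36 on phenylalanine and -3.66 ± 0.20 on methionine (exact p = 2.57e-05, adjusted 7.71e-05). UPC2 was dim with leucine and phenylalanine, and with all signals floored at the 25th percentile the adjusted p for this pair was 0.0033. For ARE1 to ARE2 the ratio did not pass (exact p = 0.59), but with signals floored at the 25th percentile, which sets nearly all ARE2 values equal, the adjusted p was 0.00926. Different probe sets bind with different strength, so only the change of these ratios between sources was tested.

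**Figure D4:**
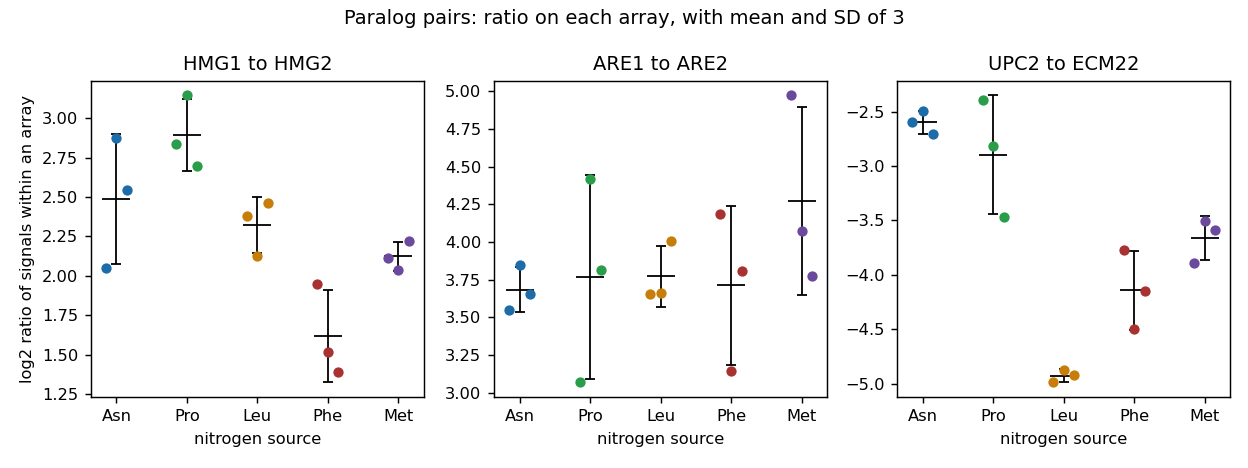
Log2 ratio of signals within each array for 3 gene pairs, by nitrogen source (names shortened as above), with the mean and SD of 3 arrays. The mean of HMG1 to HMG2 is lowest with phenylalanine. UPC2 was under the dim bound on all 3 leucine arrays and 2 phenylalanine arrays, and ARE2 on nearly all arrays, so those points have no order.

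The 4 comparisons with asparagine share its 3 arrays. With proline, 10 of the 29 genes rose and 0 fell, where 4.60% of all probe sets rose and 8.70% fell. The 10 were ERG13, ERG8 and ERG20 of the early branch, ERG9, ERG7, ERG24, ERG27, ERG5 and ERG4 of the late branch and CYB5, by 1.33- to 1.76-fold, and the median log2 difference of the 29 was 0.30 against -0.08 over all probe sets tested. By limma at an unadjusted p under 0.05, 15 rose and 2 fell. This count was fragile. It was 3 without asparagine array 1, 2 without asparagine array 3, 3 without proline array 1, 3 without proline array 2 and 4 without proline array 3, and only ERG5 and ERG4 kept their call whichever of the 15 arrays was left out. The share of all probe sets called dropped as well, from 13.3% to 7.07%, 4.91%, 5.48%, 6.70% and 9.33% in the same order. Technical measures also differed between these groups: the hybridisation control signal was 351 ± 58.2 with asparagine and 139 ± 28.2 with proline, the ratio of 3' to 5' actin signal 2.77 ± 0.80 and 1.90 ± 0.43, and the ribosomal RNA control signal 16.4 ± 5.20 and 55.0 ± 37.7. With the actin ratio or the hybridisation signal as a covariate 1 gene passed in each fit, where 4.42% and 6.38% of all probe sets were called. Without the 5 arrays of a ribosomal RNA signal over 40 (proline 2 and 3, leucine 3, phenylalanine 3 and methionine 2), a choice made after seeing the data that left 1 proline array, 0 genes passed limma's adjusted threshold and 10 rose at an unadjusted p under 0.05. In that fit the log2 difference of ERG4 was 0.97 (adjusted p 0.055).

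With leucine, 2 of the 29 genes rose (ERG20 and ERG7) and 14 fell, where 9.88% of all probe sets rose and 11.0% fell. The 14 were ERG10, HMG1 and HMG2 of the early branch, ERG1, ERG11, ERG25, ERG28, ERG6, ERG2, ERG3 and ERG5 of the late branch, CYB5, UPC2 and HES1, with a median log2 difference of the 29 of -0.46 against -0.03. Of these 16 calls 12 held whichever array was left out. The 4 others, given here and later with the number of arrays whose removal ended the call and the highest adjusted p that any removal gave, were HMG2 (7 arrays, 0.22 without asparagine array 1), ERG20 (1 array, 0.053 without asparagine array 3), ERG7 (11 arrays, 0.15 without asparagine array 1) and ERG2 (4 arrays, 0.12 without leucine array 1). With phenylalanine, 1 gene rose (ERG20) and 21 fell, where 7.55% of all probe sets rose and 18.1% fell. The 21 were ERG10, HMG1, MVD1 and IDI1, the late genes ERG1, ERG7, ERG11, ERG24, ERG25, ERG26, ERG27, ERG28, ERG6, ERG2, ERG3 and ERG5, and CYB5, UPC2, ECM22, ARE1 and HES1, with a median of -0.64 against -0.16. Of these 22 calls 16 held whichever array was left out. The others were ERG20 (3 arrays, 0.071 without phenylalanine array 3), ERG7 (2 arrays, 0.069 without asparagine array 2), ERG27 (4 arrays, 0.14 without phenylalanine array 3), ERG2 (1 array, 0.059 without asparagine array 1), ECM22 (10 arrays, 0.16 without phenylalanine array 3) and ARE1 (4 arrays, 0.11 without phenylalanine array 3). With each array centred on its median, which turned the median of all probe sets from -0.16 to 0.15, 2 genes rose and 11 fell. The share of all probe sets called was 24.8% after centring and 25.6% before. With only the arrays of the 2 sources in the fit, 7 of the 22 calls with phenylalanine did not pass (ERG20, ERG7, ERG24, ERG27, ERG2, ECM22 and ARE1, at an adjusted p of 0.068 to 0.19), nor did those of HMG2, ERG7 and ERG2 with leucine (0.053 to 0.057).

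With methionine, 1 gene rose (ERG12) and 16 fell, where 14.3% of all probe sets rose and 24.2% fell. The 16 were ERG10, HMG1, MVD1 and IDI1, the late genes ERG1, ERG11, ERG24, ERG25, ERG26, ERG28, ERG6, ERG3 and ERG5, and CYB5, UPC2 and HES1, with a median of -0.49 against -0.09. All 16 falls held whichever array was left out, unlike the rise of ERG12 (5 arrays, 0.17 without asparagine array 1). With each array centred on its median 3 genes rose and 14 fell, where 38.6% of all probe sets were called, as without centring. On leucine, phenylalanine and methionine the hybridisation signal was 226 ± 106, 450 ± 319 and 173 ± 15.6, the actin ratio 2.11 ± 0.29, 2.81 ± 0.70 and 1.76 ± 0.10, and the ribosomal RNA signal 53.9 ± 57.7, 27.0 ± 19.6 and 65.6 ± 89.7. With the actin ratio as a covariate the calls against asparagine numbered 16, 22 and 17 for leucine, phenylalanine and methionine (19.4%, 26.8% and 24.9% of all probe sets). With the hybridisation signal they numbered 15, 22 and 19 (20.3%, 27.0% and 32.9%), against 16, 22 and 17 without either (20.9%, 25.6% and 38.6%). Equal totals did not hold the same calls. Of 180 calls of a gene in the F test or any pair of sources, 29 did not pass with the actin ratio and 32 with the hybridisation signal. Leaving out the 5 arrays high in ribosomal RNA signal left a single proline array in the fit. The share of all probe sets called against asparagine was then lower with leucine, phenylalanine and methionine alike, so nothing is read from the members' counts.

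**Figure D5:**
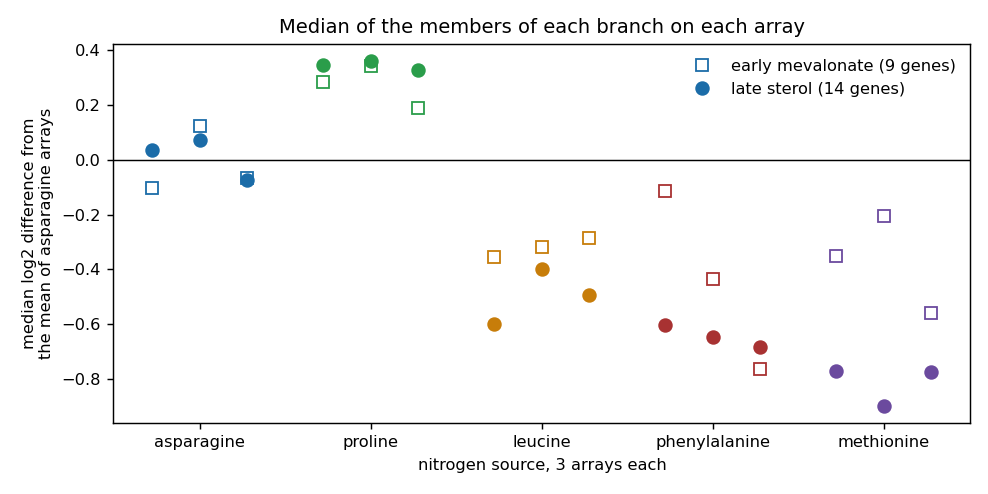
Median over the 9 early genes (open squares) and the 14 late genes (filled circles) of the log2 difference from the asparagine mean, on each of the 15 arrays, coloured by nitrogen source. The late median lies between 0.33 and 0.36 on the proline arrays, from -0.60 to -0.40 on the leucine arrays, from -0.68 to -0.60 on the phenylalanine arrays and from -0.90 to -0.77 on the methionine arrays.

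The comparisons with proline likewise share its 3 arrays. Against proline 0 of the 29 genes rose by limma with leucine, phenylalanine or methionine (0, 1 and 0 at an unadjusted p under 0.05). With leucine 19 fell, where 11.1% of all probe sets rose and 8.27% fell. With phenylalanine 25 fell, where 8.12% rose and 12.6% fell, and with methionine 24 fell, where 10.6% rose and 11.9% fell. Of the 14 late genes 12, 13 and 13 were among them in the same order, and of the 9 early genes 3, 6 and 6. Of the 19 calls with leucine, 16 held whichever array was left out, and ERG11 (3 arrays, 0.07 without leucine array 3), ERG27 (5 arrays, 0.13 without leucine array 1) and NCP1 (6 arrays, 0.11 without proline array 1) did not. Of the 25 with phenylalanine 20 held, the exceptions being ERG13 (3 arrays, 0.084 without proline array 1), ERG12 (2 arrays, 0.061 without proline array 2), NCP1 (2 arrays, 0.074 without phenylalanine array 3), ECM22 (2 arrays, 0.062 without phenylalanine array 3) and ARE1 (1 array, 0.052 without proline array 2). Of the 24 with methionine 19 held, the exceptions being ERG13 (4 arrays, 0.092 without methionine array 1), ERG20 (4 arrays, 0.10 without proline array 1), NCP1 (4 arrays, 0.14 without methionine array 1), UPC2 (1 array, 0.069 without proline array 1) and ECM22 (6 arrays, 0.12 without proline array 3). Over all 6 pairs of those 2 higher and 3 lower sources, 11 genes fell in every one: ERG10, HMG1, ERG1, ERG25, ERG28, ERG6, ERG3, ERG5, CYB5, UPC2 and HES1, where 2.94% of all probe sets tested did so. HES1 had to differ here because of the dim filter, as stated above. The 3 lower sources differed less from each other. With phenylalanine against leucine 1 gene rose (HMG2) and 4 fell (MVD1, by 1.33-fold, IDI1, ERG7 and ERG26), where 4.32% of all probe sets rose and 8.49% fell. With methionine against leucine 1 was called higher (UPC2, not called with signals floored at 9.9) and 7 fell (IDI1, ERG20, ERG7, ERG24, ERG6, ERG3 and ERG5), where 6.94% rose and 11.8% fell. With methionine against phenylalanine 2 rose (ERG12 and ARE1) and 4 fell (HMG2, ERG20, ERG1 and ERG6), where 12.7% rose and 9.51% fell. Calls ended by removing 1 array were HMG2 (2 arrays, 0.059 without leucine array 3) and MVD1 (13 arrays, 0.17 without phenylalanine array 3) with phenylalanine against leucine, IDI1 (1 array, 0.062 without methionine array 2), ERG20 (3 arrays, 0.062 without methionine array 2), ERG24 (5 arrays, 0.13 without methionine array 2), ERG3 (4 arrays, 0.11 without methionine array 2), ERG5 (3 arrays, 0.062 without leucine array 3) and UPC2 (2 arrays, 0.064 without methionine array 2) with methionine against leucine, and HMG2 (2 arrays, 0.064 without methionine array 3) and ERG20 (4 arrays, 0.079 without phenylalanine array 3) with methionine against phenylalanine. The members' share was near that of all probe sets in these last 3 pairs, other than for the falls with methionine against leucine. With only the arrays of both sources in the fit, the calls of ERG13, ERG12, ERG6, ECM22 and ARE1 with phenylalanine against proline, MVD1, IDI1 and ERG26 with phenylalanine against leucine, and ERG20 and ERG1 with methionine against phenylalanine did not pass (adjusted p 0.052 to 0.23). Leaving out the 5 arrays high in ribosomal RNA signal left 1 proline array. Fewer than the 87 calls over the 6 pairs without asparagine then passed, and the share of all probe sets called was lower as well.

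Across the 15 arrays the late genes moved with each other, as a description of samples that share sources and scaling. The correlation of each gene's log2 signal with the mean of the other late genes (n = 15 arrays, 5 sources) was highest for ERG5 (r = 0.98), followed by CYB5, ERG24 and ERG3 (r = 0.95 each), and lowest in that branch for ERG4 (r = 0.39). Of the early genes HMG1 (r = 0.94), MVD1 (r = 0.93) and ERG10 (r = 0.91) followed the late genes, while HMG2 (r = -0.02), ERG20 (r = 0.05), ERG12 (r = 0.20) and ERG8 (r = 0.26) did not. HES1 stood at r = 0.90, ECM22 at 0.86 and UPC2 at 0.74. Because HES1 passed the dim filter only through the asparagine and proline arrays, the filter favoured a high r, which is no support. Some UPC2 signals were also under the dim bound, so its r rests in part on values without order. After the mean of each source was removed, the median over the late genes was 0.20 in place of 0.89, so the likeness lay in differences between sources more than in differences between arrays of a source.

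Other genes of sterol biology were counted by list. For reference, the share of all probe sets that rose and fell against asparagine was 4.60% and 8.70% with proline, 9.88% and 11.0% with leucine, 7.55% and 18.1% with phenylalanine and 14.3% and 24.2% with methionine. Many list counts were near those shares or were a single gene, such as 2 of 9 uptake genes falling with phenylalanine, 1 of 8 heme genes rising or falling with proline or phenylalanine, 1 of 8 isoprenyl users falling with phenylalanine and 1 of 9 turnover genes falling in each comparison, and nothing is read from these. Of 9 sterol uptake and anaerobic genes 0 rose in any comparison with asparagine, 2 fell with leucine, 2 with phenylalanine and 4 with methionine. By limma at an unadjusted p under 0.05, 1, 1, 0 and 1 rose with proline, leucine, phenylalanine and methionine. DAN1, a cell wall mannoprotein gene of anaerobic cells, was at 43.2 ± 14.5 with asparagine and 83.0 ± 9.33 with proline, and at or under 9.9 in all 9 arrays of the other sources, where its level is only a bound. It was at least 4.17-fold lower with each of those than with asparagine (adjusted p 0.0021, 2.0e-04 and 5.8e-05). These p-values use signals at or under the bound. DAN1 stood above 9.9 only with asparagine and proline, so the dim filter favoured this difference and the p-values are no support for it. DAN1 is among the falls counted with leucine, phenylalanine and methionine, so its place in those counts is no support either. SUT2, a sterol uptake regulator, fell 2.17-fold with phenylalanine and 1.86-fold with methionine, and TIR1, another cell wall mannoprotein gene, fell 1.68-fold with leucine and 1.53-fold with methionine. HAP1, the heme-responsive activator, has 3 probe sets that disagree: the brightest, of a type shared by a gene family, was not called. The plain one, singled out after its values were seen, rose 1.59-fold with proline and fell 1.61-, 1.58- and 2.08-fold with leucine, phenylalanine and methionine.

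Of 5 genes for steryl ester hydrolysis and sterol acetylation, 1 rose and 1 fell with proline, and 3 fell with each of leucine, phenylalanine and methionine. ATF2, which acetylates sterols, rose 1.74-fold with proline and fell 1.89-, 2.02- and 1.97-fold with the others. YEH1, a steryl ester hydrolase, fell 1.44-, 2.21- and 1.85-fold with leucine, phenylalanine and methionine, and SAY1, the sterol deacetylase, fell with all 4 sources, by 1.43-, 1.54-, 1.41- and 1.90-fold. Of 8 heme synthesis genes the counts of rises and falls were 1 and 1 with proline, 1 and 2 with leucine, 1 and 1 with phenylalanine and 2 and 3 with methionine. HEM2 rose 1.60-, 1.71- and 2.19-fold with leucine, phenylalanine and methionine. HEM14 fell 1.45-fold with leucine and 1.54-fold with methionine, and HEM12 fell 1.87-fold with proline and 1.39-fold with methionine.

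Of 8 tested genes for other users of isoprenyl diphosphates, 0 changed with proline, 3 rose with leucine, 1 fell with phenylalanine, and with methionine 3 rose and 1 fell. With proline 1 rose and 1 fell by limma at an unadjusted p under 0.05. COQ1, of ubiquinone synthesis, rose 1.72-fold with leucine and 2.28-fold with methionine, and RAM1 and RAM2, the subunits of protein farnesyltransferase, rose 1.64- and 1.40-fold with methionine and 1.45- and 1.39-fold with leucine. Of 6 oxysterol-binding protein genes other than HES1, 0 passed with proline or leucine by limma (0 at an unadjusted p under 0.05 as well), 1 fell with phenylalanine (OSH6, 1.48-fold), and with methionine KES1 rose 1.59-fold and OSH6 fell 1.51-fold. Of 9 genes for turnover of sterol enzymes 1 fell in each comparison, HRD3 with proline (1.54-fold), leucine (1.45-fold) and methionine (1.62-fold) and SSM4 with phenylalanine (1.40-fold). Of 5 other electron transfer and helper genes, NCR1 fell 1.40-fold with leucine and ERG29 fell 2.61-fold with methionine, and no other passed.

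As a check of the labelled strain, 6 of 6 genes specific to mating type a and 4 of 4 specific to type alpha were measured. The pheromone gene MF(ALPHA)2 was at 8.10 ± 3.62 with asparagine, near the dim bound, while SAG1 (129.9 ± 18.0) and MF(ALPHA)1 (32.0 ± 5.71) were above it. Of the a-specific genes STE2 was at 101 ± 10.8 and STE6 at 60.3 ± 10.5 with asparagine. With methionine 5 of the 6 rose against asparagine, BAR1 by 3.48-fold, and of the alpha-specific genes SAG1 fell 1.83-fold. The part of these genes in the sterol results was not tested. With asparagine SAG1 stood above STE2 and STE6, but these are only some of the 6 a-specific genes. Levels of the other a-specific genes and of STE3 are not given, so the comparison is partial and nothing is read from it. Different probe sets bind with different strength, so these signals do not settle the mating type.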

How the data were processed

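The 15 arrays were single-colour Affymetrix YG_S98 chips. The deposited values are linear signal intensities per probe set from MAS5, which the authors ran, per the submitters' processing notes. No version or scaling target was found in the sources used here. Phenylalanine array 1 was a re-run after scanner servicing, per the file headers. Array medians were 38.4 to 55.3, and 3 arrays a source limit the precision.

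From these intensities, signals under 1.9 (the 10th percentile) were set to it, log2 was taken, and the 7459 of 9275 probe sets above their array's 25th percentile on at least 3 arrays (80.4%) were tested. The 60 control probe sets were left out. One limma 3.58.1 fit in R 4.3.3 held all 15 arrays (1 mean per source, variance trend), with Benjamini-Hochberg adjustment over all probe sets tested and a threshold of 0.05. It was tested on simulated data. Folds are from log2 means. Where a mean was under 9.9, the 25th percentile of all signals, the fold is the bright group's log2 mean over the dim group's with each array set to at least 9.9, and is given as at least that. Genes are named by the platform annotation.

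The genes and lists were chosen with earlier results of these data known. All 30 genes are accounted for. Values on every array are given for the regulators, ARE1, ARE2, HES1, HMG1, HMG2 and the 4 early and 6 late genes with the smallest F test p, and for ERG20 and CYB5, added after their values were seen. Of each other list the called genes with the 3 smallest adjusted p are named. Alternatives covered the scaling, floor, dim filter, variance model, array weights, replicate number, technical covariates, probe set choice and leaving out arrays. The arrays without high ribosomal RNA signal were an alternative chosen after seeing the data. A planned search of promoters for motifs was not run, since no sequences were used here.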

Additional observations from a re-analysis of the deposited data

Results flagged for a closer look

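For 5 genes the call against asparagine had opposite signs with different sources, and the difference between those sources is given from the limma fit. These genes were chosen by opposite calls against the same asparagine arrays, so their differences are a description, with no test. ERG5 rose with proline and fell with leucine, phenylalanine and methionine, and its log2 differences from proline were -1.23, -1.59 and -1.69. CYB5 did the same, with differences from proline of -1.54, -1.89 and -1.74. ERG24 rose with proline and fell with phenylalanine and methionine, which differed from proline by -1.19 and -1.40. ERG27 rose with proline and fell with phenylalanine, a difference of -0.80. ERG7 rose with proline and with leucine and fell with phenylalanine, which differed from them by -0.98 and -0.82. The rises with proline against asparagine share the limits given for that comparison. Other calls here were fragile too. Removing any 1 of 11 arrays ended the rise of ERG7 with leucine, 1 of 2 its fall with phenylalanine and 1 of 4 the fall of ERG27. With only the arrays of both sources in the limma fit these did not pass (adjusted p 0.053, 0.13 and 0.18), nor did the fall of ERG24 with phenylalanine (0.068).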

How the results depend on the processing

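Of 180 calls of a gene in the F test or a pair of sources, 113 held under every alternative that could be run for them (25 to 27 each), other than the one chosen after seeing the data. With only the arrays of the 2 sources in the fit, 20 of the 152 pair calls did not pass, 17 of them with phenylalanine. With signals floored at the 25th percentile UPC2 for methionine against leucine did not pass (adjusted p 0.62). Counts against asparagine moved most for proline, from 10 to 1 with the actin ratio as covariate, 1 with the hybridisation control signal, 17 with array weights and 5 without a variance trend, and to 0 when the 5 arrays high in ribosomal RNA signal were left out, an alternative chosen after seeing the data (10 at an unadjusted p under 0.05 in limma). Phenylalanine gave 13 calls after median centring. The 87 calls over the other 6 pairs became 38 without those 5 arrays. The cause was not tested. Signals at or near the dim bound limit UPC2, HES1 and ARE2 to bounds. Leaving out 1 array gave 26 to 29 genes in the F test, 2 to 12 for proline, 13 to 19 for leucine, 17 to 22 for phenylalanine, 16 to 20 for methionine and 76 to 92 over the 6 pairs. In the same order, the share of all probe sets called ran from 43.6% to 59.6%, 4.91% to 16.8% and 15.4% to 23.8%. For the last 3 it ran from 15.7% to 32.1%, 29.9% to 42.5% and 14.8% to 23.8%. The adjusted p of the pair ratios then ran from 0.00032 to 0.0104 for HMG1 to HMG2, 0.366 to 0.975 for ARE1 to ARE2 and 2.4e-05 to 0.00062 for UPC2 to ECM22. With a floor at the 25th percentile ARE1 to ARE2 reached an adjusted p of 0.0093. With its dimmest probe set ERG12 turned to 0.17 for phenylalanine against proline and -0.52 for methionine against phenylalanine on the log2 scale. The median of all probe sets against asparagine with phenylalanine was -0.16 as deposited, 0.01 after quantile normalization and 0.15 after median centring, and with methionine -0.09, 0.02 and 0.12. With the replicate number as a block the counts were 10, 15, 22 and 17 against asparagine, 87 over the 6 pairs and 28 in the F test. The deviations of same-numbered arrays correlated between -0.25 and 0.40 in 30 pairs (median 0.015), over 0.1 in 10 of them. Those of differently numbered arrays correlated between -0.42 and 0.42 in 60 pairs (median 0.002), over 0.1 in 13. These values do not settle whether the numbers pair the arrays.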
